A study of Ovis aries with 26 samples.

Results

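The comparison described here sets 8-cell sheep embryos (8C) against 4-cell embryos (4C), the step in which the first signs of embryonic transcription were looked for. The means compared come from 7 of the 26 libraries of the series, 3 from 4C and 4 from 8C embryos. In the limma fit, the spread behind each p-value was estimated over all 26 libraries unless fewer are named. Tested were 10598 of the 30186 genes in the deposited table, those at an FPKM of at least 1 in at least 2 of these 7 libraries. FPKM is the number of fragments on a gene, scaled to its length and to all fragments assigned to genes. All embryos of the series came from in vitro fertilization of mature sheep oocytes and were grown in culture with no further treatment in the labels, and the flanking libraries used below are 2 from mature (MII) oocytes, 4 from 2-cell (2C) and 3 from 16-cell (16C) embryos. Poly(A) RNA was taken by direct lysis and copied with Smart-seq2, which amplifies whole cDNA from very little RNA. The labels give neither the number of embryos in a library nor whether replicates came from separate animals or cultures, and every p-value here therefore speaks to the spread among libraries, part of which may be technical.

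An early mammalian embryo first lives on RNA and protein stored in the oocyte, and its own genome is then switched on in steps, a minor wave of a few genes before a major one. In sheep and cattle the major wave is placed at the 8-cell to 16-cell stages, and it runs beside the clearance of stored maternal RNA. Genes of the PRD-like homeobox class, ZSCAN4 and several Krüppel-like factors are known as early products of the embryonic genome in mammals. Since poly(A) RNA was sequenced, a stored transcript whose tail is lengthened or shortened can change its value with no change in its amount. In libraries made from whole embryos, fewer cells of a kind and less RNA per cell cannot be told apart either.

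The 7 libraries were alike in depth, with between 30.7 and 35.6 assigned reads each in units of 1e+06, recovered from the steps of the deposited values. Pearson correlations of log2(FPKM + 1) across the tested genes were 0.959 to 0.973 within 4C, 0.960 to 0.971 within 8C and 0.897 to 0.968 between the stages. The library 4C 1 correlated as closely with the 2C libraries (mean of 0.9602) as with the other 4C libraries (0.9597), and 4C 2 more closely (0.972 against 0.966). Markers of later lineages were not all near 0. The trophectoderm factors CDX2 (at most 0.122 FPKM in any of the 7 libraries) and TEAD4 (0 in all) and the pluripotency factor SOX2 (at most 0.0854) were, while 9 inner cell mass and pluripotency genes, 6 trophectoderm and 4 primitive endoderm genes passed the filter on low values.

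At 8C a small set of genes had risen. The 27 that rose by 2 or more on the log2(FPKM + 1) scale were the genome activation gene ZSCAN4, the annexin A2 receptor gene ANXA2R, the elongation factor gene SUPT4H1, the apoptosis gene PMAIP1, the neuropeptide gene VIP and 22 genes known by a LOC number alone. In limma's moderated test with Benjamini-Hochberg adjustment, 118 genes were higher at 8C (1.11% of those tested) and 84 lower (0.793%), by at least 1 on the log2(FPKM + 1) scale and at an adjusted p under 0.05. The median difference over all tested genes was 0.07. Of the 10598 tested genes, 1526 had an unadjusted p under 0.05 with a higher value and 739 with a lower one. The counts on gene lists below have these counts and the called shares as their background, and no list was tested against it. All 4 8C libraries lay above all 3 4C libraries in 12.5% of the tested genes and below them in 6.5%, and in 108 of the 118 called higher and 80 of the 84 called lower. Median-ratio scaling, which moved the median of all genes to -0.05, gave 66 higher and 117 lower, and quantile normalization gave 123 and 166. No called gene changed sign in any alternative in which it was tested.

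The number of calls rested on single libraries. Without 4C 1 there were 2 higher and 5 lower, and without 8C 4 there were 19 and 11. Without 4C 2 the counts were 197 and 133, without 4C 3 they were 82 and 50, and without 8C 1 they were 190 and 76. With the 7 libraries fitted alone, 7 genes were higher and 5 lower. ZSCAN4 and HSF1 remained called higher without 4C 1, and of the 84 lower genes 3 did, LY96, LOC114110916 and LOC101117112, named here after their values were seen.

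ZSCAN4, a zinc finger gene that is switched on for a short time during genome activation, was listed at 0 in 4C 1, at 1.32 in 4C 2 and at 17 FPKM in 4C 3. Its values at 8C were 29.2, 50.9, 235 and 118 FPKM. The lowest 8C library was above the highest 4C library, and 4C 3 was far above the other 4C libraries. The difference was 4.55 ± 0.70 (SE) on the log2(FPKM + 1) scale, with an adjusted p of 0.0037. Its FPKM was 0 throughout MII and 2C, its mean was 263 at 16C and 105 in morulae, and it was 0.203 in expanded blastocysts. The SE and the adjusted p use a spread estimated over all 26 libraries, which takes in the 0 values of MII and 2C. The call held without each of the 7 libraries, with adjusted p of 0.0485 without 4C 1 and 0.0212 without 8C 4, and it ended with the 7 libraries fitted alone (0.0845).

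SUPT4H1, a subunit of the DSIF complex that helps RNA polymerase II through elongation, went from 0.767, 4.88 and 11.8 FPKM in the 4C libraries to 15.3, 56.9, 146 and 168 in the 8C libraries. No library of one stage reached the other stage, and the order within each stage was wide. The difference was 3.77 on the log2(FPKM + 1) scale (adjusted p = 0.00602), and the mean went on to 414 at 16C and 1315 in morulae. PMAIP1, a p53 target whose product NOXA promotes apoptosis, was at 1.89, 8.35 and 15.6 in 4C and at 19.2, 35.8, 60.1 and 65.1 in 8C libraries (difference 2.44, adjusted p = 0.0107). For it too the stages did not overlap, and 4C 1 was the lowest of the 7. VIP, which encodes a neuropeptide, was at 0.64, 0.534 and 4.96 in 4C and at 6.24, 10.1, 19.6 and 12.4 in 8C (difference 2.31, adjusted p = 0.0118), and unlike PMAIP1 it was back to a mean of 1.3 in morulae. Without 4C 1 the adjusted p of SUPT4H1, PMAIP1 and VIP were 0.0533, 0.11 and 0.096, and without 8C 4 those of PMAIP1 and VIP were 0.0534 and 0.0528.

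**Figure D1:**
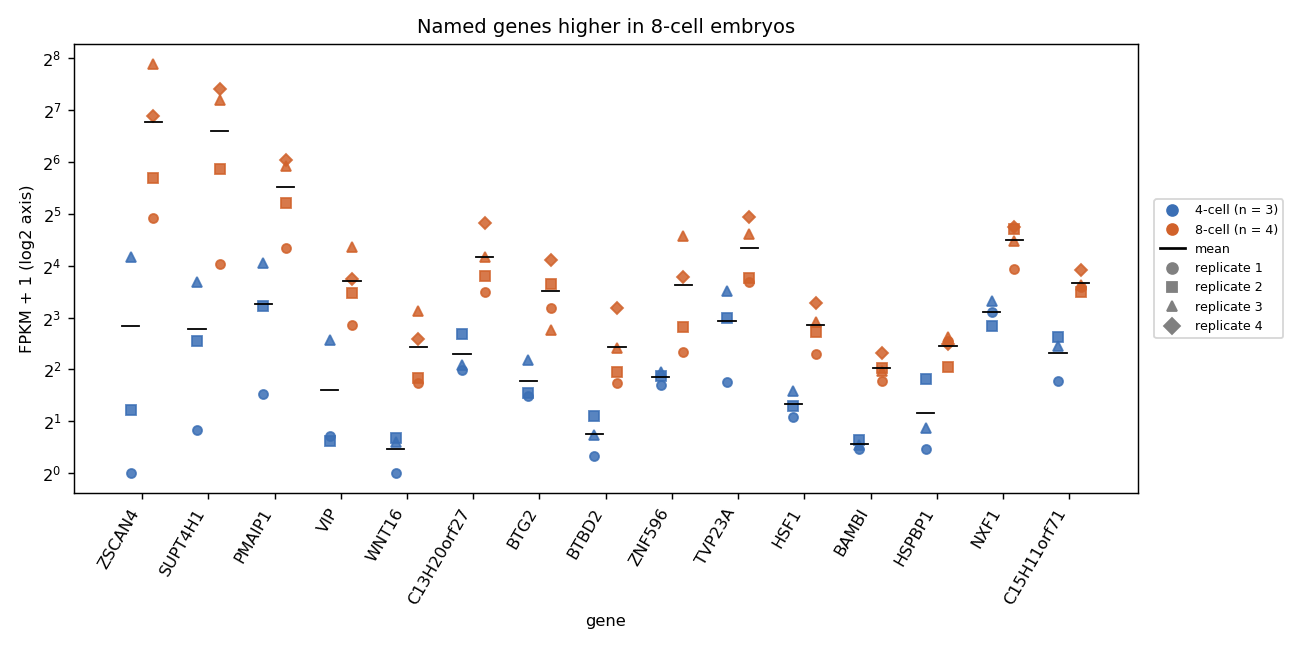
Each point is the FPKM + 1 of 1 library on a log2 axis, for the 15 genes with a symbol of their own that rose most among those whose libraries do not overlap, and bars are means. The 4C libraries (blue, n = 3) lie below the 8C libraries (orange, n = 4) in all 15 genes, from ZSCAN4 with a difference of 4.55 to C15H11orf71 with 1.37.

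Differences under 2 were found for WNT16, BAMBI and BTG2. WNT16, a secreted ligand of the WNT family, was at 0, 0.597 and 0.513 FPKM in 4C and at 2.33, 2.55, 7.77 and 5.04 in 8C libraries (difference 1.9, adjusted p = 0.0037). It had its highest stage mean at 8C, 4.42 ± 2.55 (SD, n = 4), and was at 1.79 at 16C. BAMBI, a pseudoreceptor that dampens TGF-beta signalling, was tight within each stage, at 0.371, 0.562 and 0.457 in 4C and at 2.44, 3.05, 2.91 and 3.95 in 8C libraries (difference 1.47, adjusted p = 0.0129). BTG2, an antiproliferative gene that also recruits the CCR4-NOT deadenylase, went from 1.81, 1.91 and 3.54 to 8.06, 11.6, 5.73 and 16.2 (difference 1.68, adjusted p = 0.0037). In none of these 3 genes did a 4C library reach an 8C library. BTG2 was not new at 8C, since the MII mean was 7.33 and the 2C mean 4.21, above the 4C mean of 2.42. Without 4C 1 the adjusted p were 0.0528 for WNT16, 0.0821 for BAMBI and 0.05 for BTG2, and without 8C 4 that of BAMBI was 0.0568.

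HSF1, the master transcription factor of the heat shock response, had the smallest adjusted p of the 118 higher genes. It was at 1.12, 1.46 and 2.00 FPKM in 4C and at 3.93, 5.59, 6.57 and 8.71 in 8C libraries. The gap between the stages was wider than the range within 4C, and the difference was 1.48 on the log2(FPKM + 1) scale (adjusted p = 0.00175, and 0.0225 without 4C 1). HSPBP1, a cochaperone of HSP70, went from 0.37, 2.51 and 0.83 to 4.86, 3.14, 5.14 and 4.65 (difference 1.38, adjusted p = 0.0126, 0.125 without 4C 1 and 0.0529 without 8C 4). Of 38 tested heat shock and unfolded protein response genes, 2 were called higher, HSF1 and CHAC1, and 0 lower, with 6 and 2 at an unadjusted p under 0.05. The heat shock list had a median difference of 0.01, which was -0.13 with median-ratio scaling. CHAC1, which breaks down glutathione under stress, was at 11.7, 10.8 and 6.63 in 4C and at 20.6, 20.7, 20.1 and 45.2 in 8C libraries (adjusted p = 0.013). Its call ended without 4C 1 (0.0528), 4C 3 (0.0697) or 8C 4 (0.0601). HSPA1A, an inducible HSP70 gene that is an early embryonic product in several mammals, was at 3.28, 1.95 and 2.77 in 4C and at 7.83, 4.85, 2.57 and 5.44 in 8C, overlapping and not called (adjusted p = 0.376).

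Other genes that rose with no overlap were NXF1, the main export receptor of mRNA, from 7.58 ± 1.39 to 21.7 ± 5.34 FPKM (SD, n = 3 and n = 4), ZNF596, a zinc finger gene, from 2.60 ± 0.316 to 11.4 ± 8.43, and BTBD2 from 0.687 ± 0.448 to 4.4 ± 2.60. The membrane protein gene TVP23A went from 6.60 ± 4.04 to 19.4 ± 8.62, and the uncharacterized C13H20orf27 and C15H11orf71 from 3.89 ± 1.34 to 16.9 ± 7.50 and from 4.01 ± 1.43 to 11.7 ± 1.66. Of these, ZNF596 had the steepest later course, with means of 161 at 16C and 73.4 in morulae. All of these calls ended without 4C 1, with adjusted p from 0.0528 for C15H11orf71 to 0.298 for TVP23A. Without 8C 4 the values were 0.0529 for NXF1, 0.0568 for BTBD2, 0.165 for ZNF596 and 0.161 for TVP23A. The call of ZNF596 ended also without 4C 2 (0.0702), 4C 3 (0.0969) or 8C 3 (0.106), and that of TVP23A without 8C 3 (0.0692). With median-ratio scaling both ended as well (0.0658 and 0.0527).

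The genome activation list, 34 genes written from general knowledge, had 24 members with a deposited row and 12 tested. ZSCAN4 and KLF4 were called higher and 0 lower, beside 4 and 1 at an unadjusted p under 0.05, and the list's median difference was 0.33. KLF17 and ARGFX, with differences of 0.84 and 0.44, passed the filter on low values through 8C libraries alone, which favours a higher median. KLF4, a Krüppel-like factor also used as a pluripotency marker, was at 0.581, 1.81 and 1.88 FPKM in 4C and at 3.23, 3.82, 3.29 and 4.49 in 8C libraries. The stages did not overlap, and its difference of 1 (adjusted p = 0.0128) sat at the size limit of the call rule. That call ended without 4C 1 (0.136), without 8C 4 (0.0568), without 8C 2 (difference 0.99) and with median-ratio scaling (0.89).

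Most other members of that list were not called at 8C, and several were near 0 until 16C. KLF17 was listed at 0 in 4C 1 and 4C 2, at 0.548 in 4C 3, and at 0.352, 0.992, 2.26 and 1.12 FPKM in 8C libraries (adjusted p = 0.13), against a 16C mean of 58.6. ARGFX, a PRD-like homeobox gene, was at 0.572, 0.436 and 0.188 in 4C and at 0.0975, 2.25, 0.752 and 1.02 in 8C (adjusted p = 0.773), against a 16C mean of 516. For both, 1 8C library lay inside the 4C range or below it while 16C stood far above either stage. KDM5B, a histone H3K4 demethylase, did not pass the filter on low values and was at 0.509, 0.664 and 0.954 in 4C and 0.246, 1.05, 0.538 and 0.238 in 8C. Means of KLF5 were 1.61 and 2.09, those of DPPA4 2.80 and 2.13, those of NFYA 2.65 and 2.23, those of UBTF 1.39 and 2.16, and those of HSPA8, the constitutive HSP70, 394 and 455. None of these 5 was called, with adjusted p from 0.162 for UBTF to 0.916 for DPPA4. The translation factors EIF1AX (adjusted p = 0.0918) and EIF4E (0.47) had lower means at 8C, 146 against 517 and 1267 against 1546, and EIF1AX was at 1139 in 4C 1 against 185 and 227 in the other 4C libraries.

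Behind these named genes stood a larger group without a symbol of their own. Of 27 genes higher at 8C by 2 or more on the log2(FPKM + 1) scale, 22 had a LOC number, where 18% of all tested genes do. The other 5 were ZSCAN4, SUPT4H1, PMAIP1, VIP and ANXA2R, the last of them a receptor for annexin A2 that the naming rule leaves out because its libraries overlap. ANXA2R was at 0, 0.0667 and 7.05 FPKM in 4C and at 2.09, 46.4, 121 and 76.3 in 8C libraries, so that 8C 1 lay below 4C 3 (difference 4.06, adjusted p = 0.015). Of the 27, 23 were below 1 in every MII and 2C library and 13 were listed at 0 in all 6 of them. Over all tested genes, 6.16% were below 1 in every MII and 2C library. Choosing genes by the size of their rise favours those near 0 before 8C, and 25 of the 27 were below 1 in 4C 1. Nothing is therefore read from the 23 of 27 against 6.16%. The MII and 2C values near 0 enter the spread behind the adjusted p of these genes. With the 7 libraries fitted alone, 4 of the 27 were called. Genes known by LOC numbers can be near-identical copies among which reads are split or shared, so single values of such genes are uncertain.

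Most of the 27 genes had their lowest and highest values in the same libraries. The lowest 4C library was 4C 1 in 23 of them (85.2%, against 37.8% of all tested genes), and 18 were listed at 0 there. The highest 4C library was 4C 3 in 24 (88.9%, against 30.1%). Among the 8C libraries 8C 1 was the lowest in 25 (92.6%, against 28.7%), and the highest was 8C 3 in 18 and 8C 4 in 9. These are counts with no test, since the size of the difference chose the genes. Without 4C 1, of the 27 only ZSCAN4 was called, and without 8C 4 there were 6.

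Some of these genes lie next to each other. In the gene order of the RefSeq annotation of assembly ARS-UI_Ramb_v3.0, used for order alone because the build behind the table is not given in the sources used here, 114 of the 118 higher genes and 77 of the 84 lower genes had a place. With at most 10 steps between neighbours and at least 3 called genes in a stretch, a rule set after the values were seen, 17 of the 114 higher genes fell into 4 stretches and 0 of the 77 lower genes did. All 17 had a LOC number, as did 37 of the 118 higher genes and 14 of the 84 lower genes. How often tested genes at large fall into such stretches was not counted. The richest stretch held 8 called genes among 16 genes in a row, 10 of them tested: LOC101109572, LOC101109839, LOC101110632, LOC114110154, LOC101111139, LOC101121215, LOC114110159 and LOC101112434. Its other tested genes, LOC101110889 and LOC101121468, were not called. Each of the other 3 stretches held 3 called genes, among 6, 4 and 8 genes in a row. All 17 were below 1 in every MII and 2C library, where the highest value was 0.625 FPKM, and 8 of them were listed at 0 in all. Without 4C 1, 0 of the 17 were called, and without 8C 4 there were 6.

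LOC114110154, in the richest stretch, was at 0.384, 5.24 and 22.8 FPKM in 4C and at 39.9, 31.5, 164 and 158 in 8C libraries (difference 3.70, adjusted p = 0.0247). LOC101109839, in the same stretch, was at 0, 0.697 and 0.472 in 4C and at 4.34, 5.61, 7.82 and 7.21 in 8C (difference 2.39, adjusted p = 0.00694). In both the stages did not overlap, and 4C 1 was again the lowest library. LOC101109839 was called in 19 of the 20 alternatives, the exception being the fit without 4C 1. LOC105609437 and LOC105609441, called members of another stretch, had means of 0.384 and 5.61 at 4C, 9.29 and 83.2 at 8C, and 430 and 395 at 16C. Their later courses parted: in morulae LOC105609437 had a mean of 704 and LOC105609441 one of 9.09. ZNF557, a zinc finger gene inside the same stretch, had a difference of 0.01 and was not called.

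**Figure D2:**
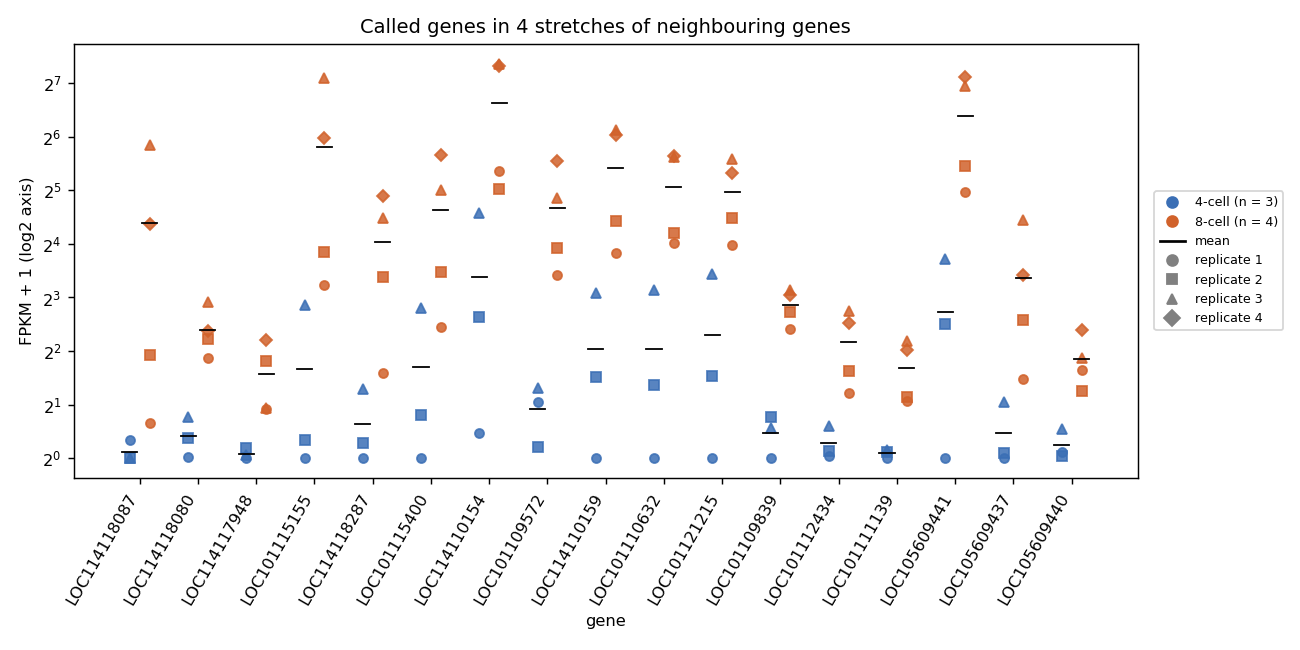
Each point is the FPKM + 1 of 1 library on a log2 axis for the 17 called genes of the 4 stretches, stretch by stretch, and bars are means. The circles of replicate 1 (4C 1 in blue, 8C 1 in orange) sit low in most genes of their stage, and 16 of the 17 genes have no overlap between 4C (n = 3) and 8C (n = 4).

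The flanking stages gave a look at these genes in libraries that did not enter the contrast, 3 from 16C and 4 from 2C embryos. Of all tested genes, 8.56% were called higher and 6.29% lower at 16C against 2C in the same limma fit. Of the 118 genes higher at 8C against 4C, 47 were also called higher at 16C against 2C, 0 were lower and 71 were not called. All 27 of the genes with a difference of 2 or more were among the 47. The sign of the difference was the same in 95 of the 118 (80.5%), where 47.3% of all tested genes were higher at 16C. Of the 118, 33 were below 1 in every MII and 2C library, and 15 were listed at 0 in all of them. Such genes could hardly be lower at 16C, so the 95 and the 47 were partly favoured by the choice of genes. When each 2C or 16C library was left out in turn, the 47 ranged from 39 to 51. Both contrasts share 1 estimate of the spread, though no library.

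The 84 lower genes were counted in the same way. At 16C against 2C, 9 of them were called lower, 9 higher and 66 not called, and 50 (59.5%) had a lower value at 16C, where 52.5% of all tested genes did. The median difference at 16C against 2C was 0.66 for the higher genes, -0.14 for the lower genes and -0.03 for all tested genes. TMEM37, which encodes a subunit-like protein of voltage-gated calcium channels, was the extreme case. It was at 28.9, 10.2 and 16.2 FPKM in 4C and at 2.61, 0.81, 7.68 and 4.22 in 8C libraries (difference -2.11, adjusted p = 0.0182), and at 261, 561 and 687 in the 16C libraries. The 8C libraries all lay below the 4C libraries, and those of 16C far above both. Its fall ended as a call without 4C 1 (0.166), 4C 3 (0.0522), 8C 2 (0.0505) or 8C 4 (0.0568). Among the other 8 genes lower at 8C and higher at 16C, chosen after their values were seen, were the prion protein gene PRNP, the calpastatin gene CAST and the chromatin reader gene SPIN1.

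**Figure D3:**
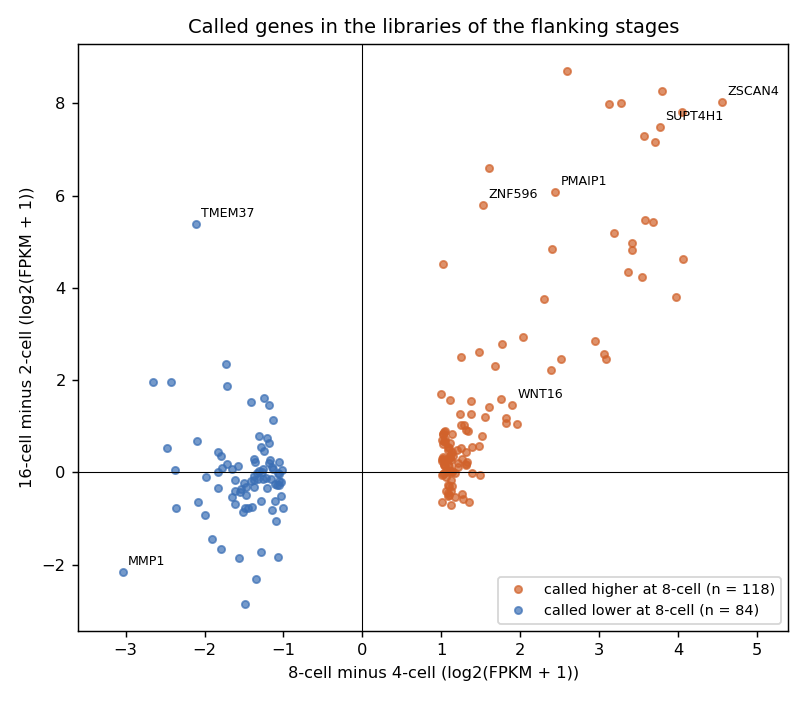
Each point is a gene called at 8C, with its difference between 8C and 4C on the x axis and its difference between 16C and 2C, in other libraries, on the y axis, both in log2(FPKM + 1). Of the 118 higher genes (orange) 95 lie above 0 on the y axis and all 27 past 2 on the x axis are among them, while 50 of the 84 lower genes (blue) lie below 0.

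The stage of highest mean level was counted over all stages. Among the 118 higher genes it was 8C for 49 (41.5%, against 15.5% of all tested genes), 16C for 17 (14.4%, against 8.28%), morulae for 19 (16.1%, against 17.2%), early blastocysts for 26 (22%, against 18.7%), expanded blastocysts for 4 (3.39%, against 11.6%) and MII oocytes for 3 (2.54%, against 10.5%). Of the 118, 68 (57.6%) reached 1 in every library of MII and 2C, against 71.9% of all tested genes. Among the 84 lower genes it was 4C for 32 (38.1%, against 7.69%), expanded blastocysts for 27 (32.1%, against 11.6%), early blastocysts for 10 (11.9%), morulae for 9 (10.7%), 2C for 4 (4.76%, against 10.5%) and MII oocytes for 2 (2.38%). Of these 84, 29 (34.5%) reached 1 in every library of MII and 2C. The contrast chose these genes partly by their 4C and 8C levels, so a peak at 8C or 4C is favoured by the choice itself, and nothing is read from those shares.

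**Figure D4:**
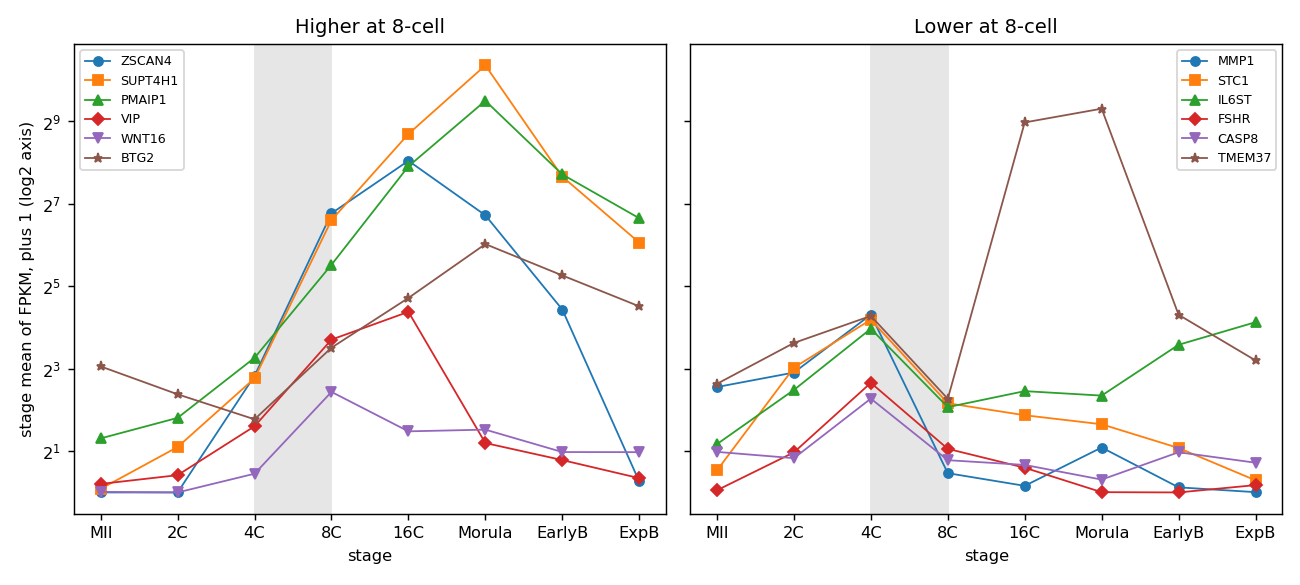
Lines join the stage means of FPKM, plus 1, on a log2 axis for 6 genes higher (left) and 6 lower (right) at 8C, with the step from 4C to 8C shaded. ZSCAN4 has its highest mean at 16C (263), SUPT4H1 and PMAIP1 theirs in morulae (1315 and 724), and TMEM37 falls at 8C before a 16C mean of 503.

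Collagenases, the receptor FSHR, the cadherins CDH2 and CDH6 and the cytokine receptor subunit IL6ST were among the genes that fell. MMP1, an interstitial collagenase, was at 47.5, 3 and 6.07 FPKM in 4C and at 0, 0.823, 0.282 and 0.426 in 8C libraries. All 8C libraries were below 1, and 4C 1 alone set most of the 4C mean. The difference was -3.04 (adjusted p = 0.013, 0.143 without 4C 1 and 0.0529 without 8C 4). MMP13, another collagenase, was at 17.2, 41.4 and 2.71 in 4C and at 2.66, 2.00, 4.11 and 1.27 in 8C (difference -2.08, adjusted p = 0.0227), so that 4C 3 lay inside the 8C range. Its call ended without 4C 1 (0.157), 4C 2 (0.091) or 8C 4 (0.0942). Of 6 tested matrix metalloproteinases and their inhibitors, 2 were lower and 0 higher, with 4 and 0 at an unadjusted p under 0.05 and a median difference of -1.62. TIMP1, an inhibitor of these enzymes, was at 1711, 353 and 902 in 4C and at 383, 582, 254 and 64.9 in 8C libraries, overlapping and not called (adjusted p = 0.159).

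FSHR, the receptor for follicle-stimulating hormone on granulosa cells, was at 6.43, 4.63 and 4.89 FPKM in 4C and at 1.07, 3.14, 0.0916 and 0.0311 in 8C libraries. The stages did not overlap, and 8C 2 was the highest of the 8C libraries (difference -1.83, adjusted p = 0.0142, 0.11 without 4C 1 and 0.0695 without 8C 4). It belongs to a list of 25 cumulus and granulosa cell markers, of which 23 were in the table and 14 tested. FSHR, the cadherin CDH2 and SERPINE2, an inhibitor of serine proteases, were called lower and 0 higher. At an unadjusted p under 0.05, 8 were lower and 0 higher. The granulosa list had a median difference of -0.99, which was -0.58 without 4C 1. CDH2 was at 4.54, 2.50 and 3.17 in 4C and at 0.871, 1.77, 0.861 and 0.0957 in 8C (adjusted p = 0.0129, 0.114 without 4C 1 and 0.0574 without 8C 4). SERPINE2 was at 84.1, 62.7 and 78.8 in 4C and at 36.6, 36.7, 40.1 and 22.9 in 8C (adjusted p = 0.0312), a call that ended without 4C 1 (0.179), 4C 3 (0.0935) or 8C 4 (0.134).

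The summed level of all 23 granulosa markers in the table ranged from 567 to 1480 FPKM at 4C and from 64.8 to 446 at 8C. SRGN, a proteoglycan of secretory granules, made up much of it, at 801, 477 and 305 in 4C and 114, 173, 246 and 5.47 in 8C (adjusted p = 0.162). LUM, a collagen-binding proteoglycan, was at 289, 122 and 133 in 4C and 27.8, 82.7, 113 and 5.22 in 8C (adjusted p = 0.198). In both the stages did not overlap and 8C 4 was far below the rest. AMH, made by granulosa cells, was listed at 0 in 6 of the 7 libraries and at 0.11 in 8C 1, and the luteinizing hormone receptor gene LHCGR was at most 0.0618. The stromal fibroblast list, with 7 tested of 15 with a deposited row, had 0 called in limma in either direction and 0 higher and 2 lower at an unadjusted p under 0.05. Its summed level was 158 to 321 in 4C and 24.3 to 154 in 8C, LUM being on both lists, and COL1A1 was at most 0.138. The part of granulosa and stromal transcripts in the lower values at 8C was not tested.

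Markers of sperm were below 1 in all 7 libraries, apart from ODF2. Of 14 sperm markers with deposited values 1 passed the filter, ODF2, which is also a centrosome gene, and it was not called (adjusted p = 0.155). The protamine gene PRM2, the transition protein genes TNP1 and TNP2, AKAP3 and the acrosin gene ACR were at 0 in all 7 libraries.

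Apart from these lists, IL6ST, the signal-transducing subunit shared by receptors of the interleukin-6 family, was at 19.8, 11.1 and 13.2 FPKM in 4C and at 3.48, 4.14, 4.33 and 0.852 in 8C libraries. The stages were well apart (difference -1.98, adjusted p = 0.0148, 0.133 without 4C 1 and 0.077 without 8C 4). STC1, a secreted glycoprotein hormone, was at 28.6, 10.3 and 12.9 in 4C and at 0.0886, 6.41, 6.63 and 0.797 in 8C (difference -2.36, adjusted p = 0.0338); 8C 2 and 8C 3 stood well above 8C 1 and 8C 4. CDH6, a cadherin, was at 15.7, 5.15 and 4.19 in 4C and at 1.93, 0.921, 1.89 and 0.0565 in 8C (difference -1.99, adjusted p = 0.013). Without 4C 1 the adjusted p were 0.236 for STC1 and 0.138 for CDH6, and without 8C 4 they were 0.134 and 0.0641. The call of STC1 ended also without 4C 3 (0.0711) or 8C 1 (0.0734). Of 13 tested cadherins and catenins, CDH2 and CDH6 were lower and 0 were higher, while CDH3 was at 22.8, 29.3 and 21.3 in 4C and 37.0, 48.0, 37.9 and 58.1 in 8C, a difference of 0.85 that was too small for the call rule.

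CASP8, the initiator caspase of death receptors, was among the tightest of the lower genes, at 3.57, 3.68 and 4.29 FPKM in 4C and at 0.58, 0.395, 0.86 and 1.05 in 8C libraries. The ranges were far apart (difference -1.51, adjusted p = 0.013, and 0.0651 without 4C 1). In the apoptosis list of 16 tested genes, PMAIP1 was the member called higher and CASP8 the member called lower, with 3 and 2 at an unadjusted p under 0.05. MCL1, an antiapoptotic partner of NOXA, was at 26.5, 26.8 and 29.0 in 4C and at 17.4, 16.4, 20.4 and 16.2 in 8C, without overlap, and its difference of -0.62 was below the size limit. Of 22 tested p53 targets and growth arrest genes, PMAIP1 and BTG2 were called higher and 0 lower, with 4 and 0 at an unadjusted p under 0.05. CDKN1A, the p53 target that encodes p21, was at 2.79, 4.41 and 12.1 in 4C and at 3.29, 4.36, 2.61 and 1.17 in 8C, overlapping and not called (adjusted p = 0.251).

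Enzymes and regulators made up the rest of the lower named genes. BBOX1, the last enzyme of carnitine synthesis, was at 7.24, 3.91 and 14.2 FPKM in 4C and at 0.208, 2.60, 0.24 and 0.0168 in 8C libraries (difference -2.48, adjusted p = 0.00852, and 0.0528 without 4C 1). It was the called member among 22 tested genes of carnitine use and fatty acid oxidation, with 3 higher and 5 lower at an unadjusted p under 0.05. The thioredoxin gene TXN was at 1218, 423 and 545 in 4C and at 305, 291, 198 and 105 in 8C (difference -1.66, adjusted p = 0.0272), and ANXA1, an annexin of inflammation control, at 111, 43.4 and 52.5 against 13.6, 31.5, 16.3 and 5.30 (difference -2.09, adjusted p = 0.0489). In both, 4C 1 was far above the other 4C libraries and 8C 4 was the lowest library. The transcription factor RUNX1 went from 4.51 ± 2.93 to 0.784 ± 0.836 (SD, n = 3 and n = 4) and the tendon factor MKX from 5.91 ± 2.93 to 1.06 ± 0.987. The autophagy gene MAP1LC3C went from 7.86 ± 3.44 to 0.797 ± 0.961, the racemase AMACR from 11.7 ± 4.18 to 2.54 ± 1.55, the interferon-induced IFIT5 from 7.65 ± 1.74 to 1.87 ± 1.19 and KCTD12 from 6.63 ± 1.83 to 1.38 ± 1.23. Without 4C 1 the calls of TXN, ANXA1, RUNX1, MKX, MAP1LC3C, AMACR, IFIT5 and KCTD12 all ended, with adjusted p from 0.0528 for KCTD12 to 0.28 for ANXA1. Without 8C 4 they ended too, from 0.0529 for KCTD12 to 0.195 for ANXA1. Without 4C 3 those of TXN (0.0522), ANXA1 (0.0935) and MAP1LC3C (0.112) ended, without 8C 1 those of ANXA1 (0.065) and MAP1LC3C (0.0592), and without 8C 3 that of ANXA1 (0.0606).

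**Figure D5:**
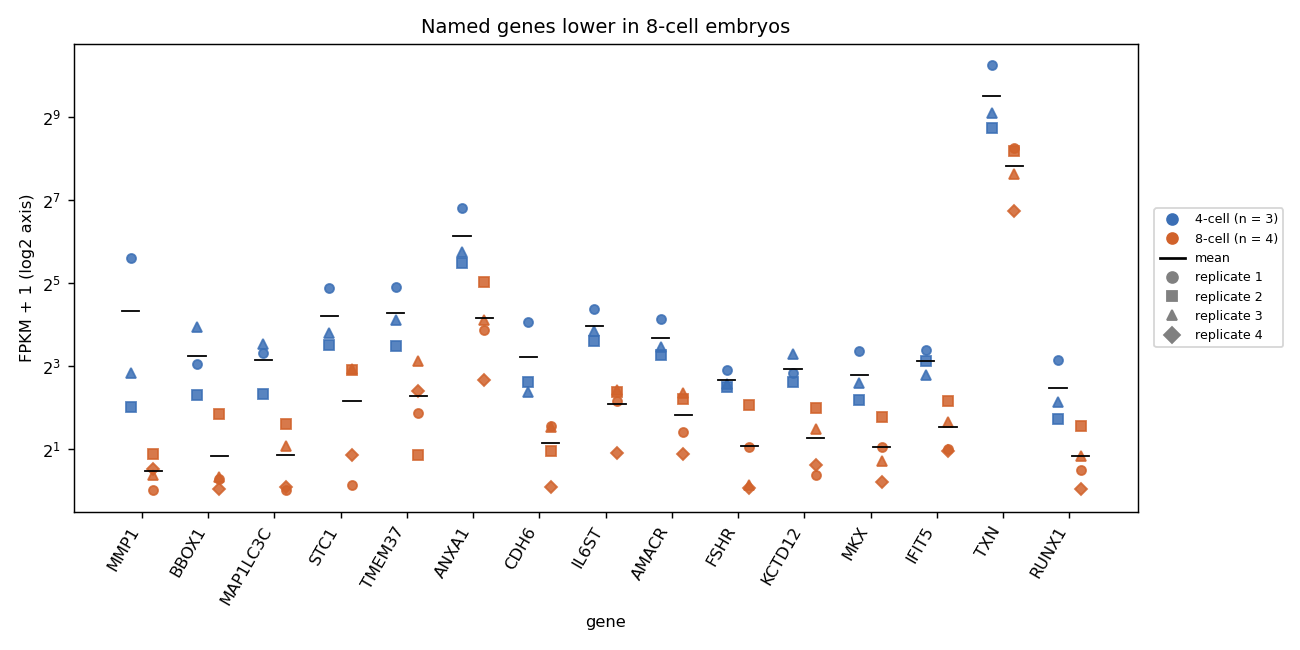
Each point is the FPKM + 1 of 1 library on a log2 axis for the 15 genes with a symbol of their own that fell most among those whose libraries do not overlap, and bars are means. Every 4C library (blue, n = 3) lies above every 8C library (orange, n = 4), and 8C 4 (diamonds) is the lowest library in 10 of the 15 genes.

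The libraries 4C 1 and 8C 4 often held the extreme values of called genes. Of the 84 lower genes, 63 (75.0%, against 38.0% of all tested genes) had their highest 4C value in 4C 1, and 51 (60.7%, against 24.6%) their lowest 8C value in 8C 4. Of the 118 higher genes, 90 (76.3%) had their lowest 4C value in 4C 1 and 72 (61.0%, against 29.9%) their highest 8C value in 8C 4. The other 8C libraries took different places in the 2 directions. The lowest 8C value was in 8C 1 for 64.4% of the higher genes (against 28.7%), while the highest 8C value was in 8C 1 for 25% of the lower genes (against 26.2%) and in 8C 2 for 42.9% (against 24%). These shares are descriptions, because a wide gap between the stage means helped to choose the genes.

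For the machinery of transcription itself, few genes were called. Of 12 tested RNA polymerase II subunits 0 were called in limma, with 3 higher and 1 lower at an unadjusted p under 0.05. POLR2A, the catalytic subunit, was at 1.05, 1.15 and 0.696 FPKM in 4C and 1.58, 2.11, 2.30 and 1.62 in 8C (difference 0.56, adjusted p = 0.0902), and POLR2B, the second largest subunit, at 85.3, 70.8 and 64.3 against 63.6, 49.2, 42.5 and 34.0 (difference -0.65, adjusted p = 0.0919). Neither gene's libraries overlapped between stages, and their differences had opposite signs. Of 54 tested initiation and elongation factors, SUPT4H1 and GTF2F1 were higher and 0 lower, with 8 and 1 at an unadjusted p under 0.05. GTF2F1, a subunit of the initiation factor TFIIF, was at 10.1, 5.27 and 4.64 in 4C and 18, 14.4, 13.1 and 13.3 in 8C (difference 1.09, adjusted p = 0.0373). Its call ended without any 1 of 4C 1 (0.0528), 4C 2 (0.0842), 4C 3 (0.141), 8C 1 (0.0659), 8C 2 (0.0618) and 8C 4 (0.0942), and with median-ratio scaling (0.0656).

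Processing of RNA was represented by single genes. Of 74 tested core spliceosome components, U2AF2, which binds the polypyrimidine tract at the 3′ splice site, was the called one. It was at 4.93, 9.23 and 5.51 FPKM in 4C and 13.8, 9.85, 18.5 and 17.4 in 8C (difference 1.08, adjusted p = 0.0314). At an unadjusted p under 0.05, 8 of the 74 were higher and 3 lower, beside 1526 and 739 of all 10598 tested genes. The call of U2AF2 ended without 4C 1 (0.213), 4C 3 (0.105), 8C 3 (0.0633) or 8C 4 (0.12). It ended also under median-ratio scaling (0.0507) and after quantile normalization, where the difference was 0.99. Of 45 tested SR proteins and hnRNPs, HNRNPLL was the called one, lower at 8C, from 3.40 ± 0.913 to 0.943 ± 0.450 (SD, n = 3 and n = 4, adjusted p = 0.012, 0.107 without 4C 1 and 0.0568 without 8C 4), with 6 higher and 6 lower at an unadjusted p under 0.05. Of 22 cleavage and polyadenylation factors 0 were called in limma, with 7 higher and 3 lower at an unadjusted p under 0.05.

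Stored maternal transcripts were measured through lists of oocyte and RNA decay genes. Of 29 tested oocyte and maternal effect genes 0 were called in limma, with 5 higher and 0 lower at an unadjusted p under 0.05, and the oocyte list's median difference was 0.27, or 0.13 with median-ratio scaling. Of 59 tested genes of maternal RNA decay and storage 2 were higher, BTG2 and YBX2, and 0 lower, with 11 and 6 at an unadjusted p under 0.05. YBX2, which packages stored mRNA in germ cells, was at 9.55, 11.9 and 13.4 FPKM in 4C and 23.7, 36.6, 24.2 and 33.9 in 8C libraries (difference 1.26, adjusted p = 0.013, 0.107 without 4C 1 and 0.0568 without 8C 4). The stages did not overlap, and the 8C level was above the MII mean of 16.6.

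Of 45 tested cyclins and mitotic regulators, 35 had a difference above 0. How many of all tested genes had a difference above 0 was not counted. Of the 45, 12 had no overlap with 8C higher and 2 with 8C lower, where 12.5% and 6.5% of all tested genes did. The list's median difference was 0.29, and it was 0.15 with median-ratio scaling. Over all tested genes the median was 0.07, and -0.05 with that scaling. E2F4, a repressor-type E2F factor, was called higher, at 3.46, 3.53 and 1.76 FPKM in 4C and 6.59, 5.87, 5.23 and 10.3 in 8C (difference 1.03, adjusted p = 0.0187), and 0 were lower, with 10 and 3 at an unadjusted p under 0.05. The phosphatase CDC25A, which drives entry into S phase and mitosis, was at 6.37, 7.76 and 7.88 in 4C and 17, 15.6, 11.4 and 15 in 8C (difference 0.91, adjusted p = 0.0463), and the mitotic kinase PLK1 at 2.52, 5.12 and 3.50 against 11.4, 7.53, 5.50 and 7.92 (difference 0.94, adjusted p = 0.0379). Both were below the size limit of the call rule, with no overlap between the stages. The call of E2F4 ended without 4C 1 (0.0645), 4C 3 (0.105) or 8C 4 (0.0935), and with median-ratio scaling, where its difference was 0.90.

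Signalling lists outside WNT16 and IL6ST held few calls. Of 7 tested WNT ligands and their secretion genes, WNT16 was higher and 0 were lower, with 3 and 0 at an unadjusted p under 0.05, and all 7 differences were above 0. These 7 were the ones of 25 listed genes to pass the filter on low values. WNT16 passed it through 8C libraries alone, which favoured the sign of its difference. The median difference of these 7 was 0.46, where that of all tested genes was 0.07. PORCN, which adds a lipid to WNT proteins, was at 7.88, 18.1 and 12 FPKM in 4C and 20.8, 18.5, 24.8 and 38.1 in 8C (difference 0.98, adjusted p = 0.0513), without overlap. Of 22 tested WNT receptors, inhibitors and transducers 0 were called in limma, with 4 higher and 4 lower at an unadjusted p under 0.05. In the list of 17 tested genes of the interleukin-6 family and JAK-STAT signalling, IL6ST was the called one, with 1 higher and 1 lower at an unadjusted p under 0.05.

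The lists for protein synthesis, respiration and chromatin held 2 called genes, both of them mitochondrially encoded subunits. WARS1, a tRNA synthetase gene (difference 1.02, adjusted p = 0.013), and PRMT1, which encodes an arginine methyltransferase (1.04, adjusted p = 0.0419), are on none of these lists and were called higher; they are named here after their values were seen. Of 76 cytosolic ribosomal protein genes 0 were called in limma at 8C against 4C, with 7 higher and 3 lower at an unadjusted p under 0.05, while 63 of the 76 were called higher at 16C against 2C. The ribosomal median difference at 8C was -0.11, and it was 0.15 without 4C 1 and -0.25 with median-ratio scaling. Of 49 translation factors, 80 ribosome biogenesis factors and 63 chromatin and DNA methylation regulators 0 were called in limma, with 6, 6 and 17 higher and 2, 6 and 2 lower at an unadjusted p under 0.05. Of 54 nuclear oxidative phosphorylation subunits 0 were called in limma, with 3 higher and 8 lower at an unadjusted p under 0.05 and a median difference of -0.25 that was -0.06 without 4C 1 and -0.40 with median-ratio scaling. Of 12 tested mitochondrially encoded subunits 2 were lower, listed as KEF53_p11 and KEF53_p10, with 0 higher and 3 lower at an unadjusted p under 0.05. KEF53_p11 was at 545, 290 and 332 in 4C and 202, 199, 233 and 64.6 in 8C (adjusted p = 0.0457), and KEF53_p10 at 821, 239 and 301 against 226, 162, 182 and 96.1 (adjusted p = 0.048). Without 4C 1 their adjusted p were 0.28 and 0.363, without 4C 3 they were 0.0872 and 0.0672, without 8C 2 they were 0.0505 and 0.0774, without 8C 4 they were 0.179 and 0.192, and without 8C 3 that of KEF53_p10 was 0.056.

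The lists of blastocyst lineage markers held 1 called gene, KLF4. Of 9 tested inner cell mass and pluripotency genes it was the called one, with 2 higher and 0 lower at an unadjusted p under 0.05, and the summed level of the list was 133 to 168 FPKM at 4C and 148 to 201 at 8C. POU5F1, the core pluripotency factor OCT4, was at 1.40, 0.82 and 1.30 FPKM in 4C and 1.88, 1.61, 1.19 and 3.69 in 8C (adjusted p = 0.3), overlapping between the stages. Of 6 trophectoderm and 4 primitive endoderm genes tested, 0 were called in limma, with 1 and 1 higher and 0 lower at an unadjusted p under 0.05. The summed level of the trophectoderm list was 16.3 to 21.7 at 4C and 17.4 to 22.9 at 8C, and that of the primitive endoderm list 21.9 to 28.2 and 26.1 to 32.3.

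Genes were also counted against a threshold. The count of genes reaching an FPKM of 1 was 9488, 9359 and 9525 in the 4C libraries and 9551, 9852, 9678 and 9770 in the 8C libraries. Every 8C library was above every 4C library, and 4C 3 came close to 8C 1. The means differed by 255 genes (exact two-sided permutation test, p = 0.0571, where 35 assignments allow at the least 0.0286). Between individual genes, 81 stayed below 1 throughout 4C and reached 1 throughout 8C, and 36 went the other way. With the threshold at 0.1 FPKM these counts were 46 and 49, and at 5 FPKM they were 56 and 30. Of the 81, 12 were among the genes called higher, and of the 36, 16 among those called lower. Leaving out 1 library at a time gave 94 to 145 genes on at 8C, the highest without 4C 3, and 46 to 99 off, the highest without 4C 2, since fewer libraries make the condition easier to meet.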

How the data were processed

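The authors deposited FPKM per gene, 1 column per library. Per the submitters' processing notes, they used featureCounts 2.0.1, HISAT2 2.1.0, fastp 0.23.4 and SAMtools 1.9. No build, annotation or strand setting is named there or in the labels. Isoforms and poly(A) sites cannot be read from these values. From the deposited FPKM, log2(FPKM + 1) was fitted with limma 3.58.1 in R 4.3.3 (lmFit on 8 stage means over 26 libraries, contrasts.fit, eBayes with trend, degrees of freedom 18 residual and 5.33 prior). The 10598 genes at an FPKM of at least 1 in 2 of the 7 libraries were tested with limma's moderated two-sided test and Benjamini-Hochberg adjustment over all of them. A gene is called, and said to have risen or fallen, at an adjusted p under 0.05 and a difference of at least 1, which understates changes of genes near 0. No count model was used on FPKM. The fit was run on simulated data with 200 changed genes. It called 89% of 100 genes changed by 1.5 on the log2(FPKM + 1) scale and 100% of 100 changed by 3, with 6 false calls. In the deposited FPKM the number of calls rested on single libraries, and whether these figures hold there was not tested. Depth was recovered from 66 to 94 low values of small RNA genes per library, all whole reads within 0.05 reads, and reads without molecular identifiers are not independent molecules. The named genes are the 15 called in each direction that differ most, with no overlap between libraries and a symbol that is neither a LOC number nor a small RNA, every called member of a list, and every genome activation gene reaching 1 in any of the 7 libraries. The comparison, the genes and the lists were chosen with earlier results of these data known. Same-numbered libraries were not treated as paired in the main fit. Blood cell markers are not reported here. Figures were drawn with matplotlib 3.10.9. Alternatives covered the libraries in the fit, scaling, pseudocount, filter, size threshold, a replicate block and leaving out each library; their effects are given at the end.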

Additional observations from a re-analysis of the deposited data

Results flagged for a closer look

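Among the 55 sets of 4 8C values that were checked, 2 had a library far from the other 3, where chance sets apart about 1 in 20. BBOX1 was at 2.598 FPKM in 8C 2 and at 0.0168 to 0.2404 in the other 8C libraries, all of them below the 4C libraries. CHAC1 was at 45.1568 FPKM in 8C 4 and at 20.1365 to 20.7187 in the other 8C libraries, all of them above the 4C libraries.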

How the results depend on the processing

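The counts of genes called at 8C against 4C, 118 higher and 84 lower, moved with most settings, and the cause was not tested. Higher and lower calls numbered 7 and 5 with only the 4C and 8C libraries, 10 and 5 with the 2C to 16C libraries, 187 and 100 on the TPM scale, 66 and 117 under median-ratio scaling and 123 and 166 after quantile normalization. They numbered 178 and 64 at a pseudocount of 0.1, 37 and 26 at 5, 67 and 42 without a filter, 95 and 45 with a filter at 5, 91 and 52 with the filter over all 26 libraries and 252 and 107 with no minimum difference. Without the mitochondrial genes, a setting chosen after seeing the data, they numbered 118 and 82. Leaving out 1 library gave 2 to 197 higher and 5 to 133 lower, the lowest without 4C 1 and the highest without 4C 2. A fit of the 4C and 8C libraries alone also took the replicate number as a block, where 8C 4 has no partner and drops out of the difference. It gave 24 higher and 0 lower (limma, 1700 genes at an unadjusted p under 0.05), against 7 and 5 in those libraries without the block. Same-numbered libraries correlated at 0.220, -0.109 and 0.094 in their deviations from the stage means. The libraries 4C 1 and 4C 3 correlated best with the 8C library of their own number, and 4C 2 with 8C 4 (0.289). The labels do not say whether the numbers pair the libraries, and these few correlations cannot decide it. At 16C against 2C the lower calls, 667, became 1137 on the TPM scale, and the other counts stayed within 1.5 times. Genes off at 4C and on at 8C, 81, became 46 at a threshold of 0.1 and 94 to 145 without 1 library. Those on at 4C and off at 8C, 36, became 49 at a threshold of 0.1 and 46 to 99 without 1 library. The difference of DPPA4, not called, was -0.10 and ran from -0.66 to 0.44 without 1 library, and that of NFYA, -0.15, from -0.38 to 0.13. Of the other values, 283 of named genes lost their call, 2 gained one and 754 kept their side, and 18 list medians moved by more than the spread of the list against 600 that did not. Counting error was not estimated from these FPKM.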
